A study of Mus musculus with 6 samples.

Results

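The integrins and laminins were the adhesion receptors and matrix proteins followed here. The members were all rows of the deposited table whose gene symbol names an integrin chain or a laminin chain. There were 36 of them among 55401 genes: 17 integrin alpha chains, 8 integrin beta chains and 11 laminin chains. Messenger RNA of male mouse cells was sequenced in 6 libraries, 3 for each of 2 groups. SSCs are spermatogonial stem cells from the testes of 6-day-old males. They were cultured on STO fibroblast feeders, with GDNF and EGF at 20 ng/mL, LIF and bFGF at 10 ng/mL, and serum at 10%. iNSCs are neural stem cell-like cells made from such cells by transdifferentiation for 6 days. For this the cells were trypsinized, separated by differential plating and seeded on laminin. They then received retinoic acid at 1 µM for 24 h and afterwards a neural medium (N2, B27, bFGF at 20 ng/mL, serum at 1%) with SB431542, an inhibitor of TGF-beta type I receptors, at 10 µM. The labels name no mutation, transgene or strain in either group. Substrate, medium and cell state changed together, so their parts in any difference cannot be told apart.

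Integrins are receptors of 1 alpha and 1 beta chain that tie the cytoskeleton to the matrix or to other cells, and the pairing decides what is bound. Laminins are cross-shaped trimers of an alpha, a beta and a gamma chain that form the sheet of basement membranes. In the testis, spermatogonial stem cells sit on a laminin-rich basement membrane, and the alpha6 and beta1 chains are widely used surface markers of them. In the nervous system, neural stem cells contact laminins of the ventricular zone and of blood vessels. The integrin alpha6 beta4 and the trimer laminin-332 are best known from hemidesmosomes, the anchors of epithelia.

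Library totals were 18058551 to 20156067 counts. Integrin chains held 0.0885% to 0.110% of all counts in SSCs and 0.357% to 0.366% in iNSCs, and laminin chains held 0.0785% to 0.114% and 0.349% to 0.365%. All 5 germ cell markers fell, with a summed level of 441 to 525 FPKM in SSCs and 7.78 to 10.5 FPKM in iNSCs. FPKM is the count scaled by exonic length and by the library's total. Of 6 neural stem cell markers, Nes and Prom1 rose, Sox2 and Pax6 fell, and Sox1 (43 counts in SSCs, 0 in iNSCs) and Fabp7 (1 and 23 counts) were too low to be tested, so these markers were mixed with respect to the neural label. Of 7 markers of simple epithelium, 6 rose and 0 fell. The sum of all 7 was 151 to 248 FPKM in SSCs and 2580 to 3041 FPKM in iNSCs. Most of the SSC sum was Epcam (127, 127 and 206 FPKM), which was not called and averaged 102 ± 9.34 FPKM in iNSCs. The SSC libraries were unequal: the summed level of 8 fibroblast and feeder markers was 418, 360 and 51.9 FPKM in SSCs replicates 1, 2 and 3, and that of 5 smooth muscle and myoid markers 524, 449 and 23.6 FPKM, against 114 to 162 and 252 to 300 FPKM in iNSCs. Of these 8 and 5 markers, 4 and 0 rose and 1 and 0 fell. The fibroblast sum of SSCs was mostly Col1a1 (189, 168 and 23.0 FPKM), Col3a1 (131, 106 and 13.5 FPKM) and Col1a2 (69.4, 64.9 and 4.39 FPKM). Thy1 and Postn, like these collagen genes, were lowest in SSCs replicate 3. Dcn (1.68, 0.23 and 2.91 FPKM), Pdgfra (5.16, 4.19 and 5.27 FPKM) and Lum (0.08, 0.02 and 0.09 FPKM) were instead highest there among SSCs. The labels do not say whether feeder cells were removed before RNA was taken from SSCs, and the feeders are mouse cells too. In such bulk samples fewer cells of a type and less RNA per cell cannot be told apart.

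Most integrin and laminin chains that changed were higher in iNSCs, and the chains that fell were all integrins. In iNSCs Itga3 and Itgb1, the chains of the laminin receptor alpha3 beta1, were at 269 ± 12.4 and 205 ± 11.2 FPKM (mean ± SD, n = 3). Itgb6 and Lamb3, at the edge of detection in SSCs, reached 12.9 ± 0.702 and 70.9 ± 4.0 FPKM. The lymphocyte-type chains Itgal, Itgae and Itgb7 and the alphav partners Itgb3 and Itgb5 went the other way. Of the 36 members 33 had enough counts to be tested. A gene rose or fell when edgeR's quasi-likelihood test gave an adjusted p below 0.05 together with a change of at least 2-fold. By that rule 9 of 22 tested integrin chains rose and 6 fell, and 7 of 11 laminin chains rose and 0 fell. Over all 17387 genes tested, 53.3% were called, 25.7% upward and 27.6% downward. The called shares of 68.2% for integrins and 63.6% for laminins are not far from that background, so what follows describes which chains moved and by how much. With no size threshold, 73.9% of all genes tested had an adjusted p below 0.05. The share of all genes whose groups did not overlap was not counted, so a lack of overlap is given below as description only. The median log2 difference, iNSCs minus SSCs, was 0.24 for integrins and 2.26 for laminins, against -0.05 for all genes tested. Differences are scaled by TMM: with library totals in its place the median of all genes shifted by -0.25, and since FPKM is scaled by library totals, a ratio of FPKM values carries that shift.

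**Figure D1:**
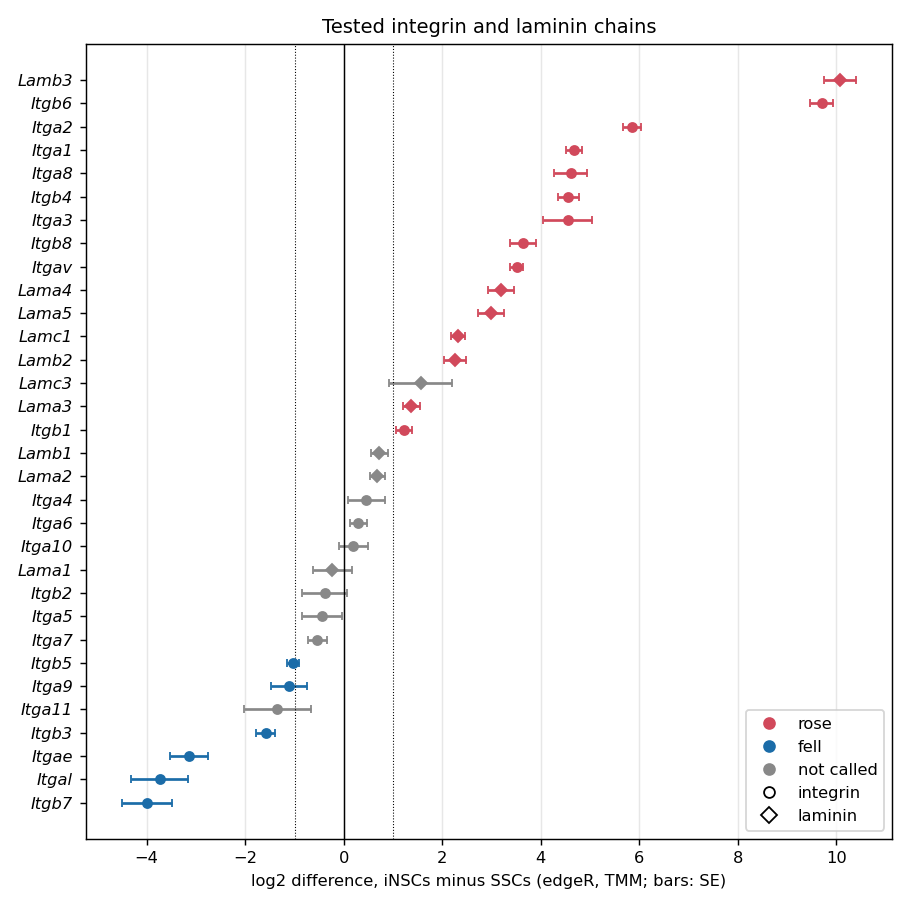
Log2 difference (iNSCs minus SSCs, x axis) with its standard error for 32 of the 33 tested chains; circles are integrins, diamonds laminins, and dotted lines mark the 2-fold threshold. Lamb3 and Itgb6 lie near 10, and the chains that fell, between -1.04 and -3.99, are all integrins.

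The start regions of 4 chains are shown because these chains mark the ends of the picture: Itga3, with the highest integrin level in iNSCs, Itgb6 and Lamb3, with the largest rises, and Itgb5, the most abundant chain that fell. The sequences are RefSeq windows on GRCm38.p6 from 250 bases before to 50 bases after an annotated start, written in the direction of transcription. Capitals mark the letters of a GC box (GGGCGG or CCGCCC) or of an NF-kB site. The windows are chr11:95076665-95076964 (minus strand) for Itga3, chr2:60722554-60722853 (minus strand) for Itgb6, chr1:193301744-193302043 (plus strand) for Lamb3 and chr16:33829415-33829714 (plus strand) for Itgb5.
Itga3: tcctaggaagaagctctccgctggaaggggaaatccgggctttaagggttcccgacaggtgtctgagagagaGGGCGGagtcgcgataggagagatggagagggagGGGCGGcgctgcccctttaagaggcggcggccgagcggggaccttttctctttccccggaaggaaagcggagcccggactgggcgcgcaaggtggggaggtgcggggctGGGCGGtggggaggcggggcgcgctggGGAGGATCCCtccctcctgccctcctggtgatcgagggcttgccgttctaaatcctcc
Itgb6: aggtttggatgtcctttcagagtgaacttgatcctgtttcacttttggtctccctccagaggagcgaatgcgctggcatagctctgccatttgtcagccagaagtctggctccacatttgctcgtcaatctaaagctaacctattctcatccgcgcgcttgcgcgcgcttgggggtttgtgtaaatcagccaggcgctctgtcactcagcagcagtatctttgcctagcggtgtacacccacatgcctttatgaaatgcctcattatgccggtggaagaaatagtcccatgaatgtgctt
Lamb3: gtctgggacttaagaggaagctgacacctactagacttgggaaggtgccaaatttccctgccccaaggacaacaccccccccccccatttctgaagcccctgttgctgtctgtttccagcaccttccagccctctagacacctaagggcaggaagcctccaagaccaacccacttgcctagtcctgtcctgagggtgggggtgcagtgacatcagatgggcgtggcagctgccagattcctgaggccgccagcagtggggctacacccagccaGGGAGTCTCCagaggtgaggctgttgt
Itgb5: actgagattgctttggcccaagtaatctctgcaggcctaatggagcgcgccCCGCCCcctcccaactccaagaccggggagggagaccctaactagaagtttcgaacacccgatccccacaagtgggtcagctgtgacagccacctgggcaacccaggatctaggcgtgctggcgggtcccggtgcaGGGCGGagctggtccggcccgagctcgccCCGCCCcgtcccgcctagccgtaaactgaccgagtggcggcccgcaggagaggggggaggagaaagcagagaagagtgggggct
The Itga3 window held 3 GC boxes and 1 match to the NF-kB site, and 24 CG pairs. The Itgb5 window, of a chain that fell, held 3 GC boxes as well and 20 CG pairs. The Lamb3 window held 1 match to the NF-kB site, 0 GC boxes and 2 CG pairs, and it lies inside the gene as the table draws it, 94295 bases from the table's start. The Itgb6 window held neither motif and 12 CG pairs. A window could be matched to 22 of the 36 members: 11 of them held a GC box, 2 an NF-kB site, 2 the AP-1 letters TGANTCA and 0 the TATA box letters TATAAA, on either strand and counting overlaps. Among 32544 RefSeq windows these shares were 35.9%, 8.49%, 7.79% and 13.6%. Such matches are letters only, and no binding was measured.

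The beta chains come first, since each integrin needs 1. Itgb1, the partner of most alpha chains (ENSMUSG00000025809, chromosome 8, 128685654 to 128733200, plus strand), had 120.8, 118 and 77.4 FPKM in the SSC libraries, in the order of their replicate numbers as throughout, and 216, 206 and 194 FPKM in iNSCs. It was the most abundant beta chain in every library, and the groups did not overlap. It rose (log2 1.22, SE 0.17, adjusted p = 3.9e-04), but at 0.96 with library totals in place of TMM it was below 2-fold. Itgb4, whose long cytoplasmic tail binds the hemidesmosome, had 1.28, 1.24 and 0.770 FPKM in SSCs and 18.6, 22.1 and 24.0 FPKM in iNSCs (log2 4.56, SE 0.21, adjusted p = 3.9e-06). Every iNSC library was above every SSC library by more than 10 FPKM.

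Itgb6 and Itgb8 encode partners of alphav alone, and both receptors are known for freeing TGF-beta from its latent complex. Itgb6 (ENSMUSG00000026971, chromosome 2, 60598292 to 60722643, minus strand) had 7 counts over the 3 SSC libraries and 5377 over the iNSC libraries. Its levels were 0.02, 0.01 and 0.02 FPKM against 12.1, 13.4 and 13.2 FPKM (log2 9.70, SE 0.23, adjusted p = 5.9e-07). Itgb8 went from 0.290, 0.210 and 0.380 FPKM to 3.35, 3.38 and 2.53 FPKM (log2 3.64, SE 0.26, adjusted p = 2.1e-05). Both chains were therefore low in every SSC library and higher in every iNSC library, while Tgfb1, a ligand of these receptors in its latent form, averaged 12.25 ± 5.66 FPKM in SSCs, 9.94 ± 0.735 FPKM in iNSCs, and was not called.

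Itgb5 and Itgb3, which also pair with alphav, fell. Itgb5, a vitronectin receptor chain, had 39.0, 30.6 and 27.55 FPKM in SSCs and 13.5, 13.0 and 13.1 FPKM in iNSCs (log2 -1.04, SE 0.12, adjusted p = 2.1e-04). The groups did not overlap, but the change was near 2-fold, and at log2 -0.91 without SSCs replicate 1 and -0.99 without iNSCs replicate 2 it missed that size. Itgb3, known from platelets and osteoclasts, had 3.35, 4.70 and 3.24 FPKM in SSCs and 1.01, 1.05 and 1.09 FPKM in iNSCs (log2 -1.59, SE 0.20, adjusted p = 2.6e-04). Itgb7, a chain of lymphocyte homing receptors, had 3.45, 2.42 and 1.39 FPKM in the SSC libraries and 0.190, 0.130 and 0.0500 FPKM in the iNSC libraries; it fell (log2 -3.99, SE 0.50, adjusted p = 2.8e-04). Itgb2, the common beta chain of leukocytes, was low in both groups, at 0.550 ± 0.243 and 0.350 ± 0.168 FPKM, with overlapping libraries and no call (log2 -0.39, adjusted p = 0.46).

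In order of level, SSCs had Itgb1, Itgb5, Itgb3, Itgb7, Itgb4, Itgb2, Itgb8 and Itgb6, where the ranges of Itgb3 and Itgb7 and those of Itgb4 and Itgb2 overlapped. In iNSCs the order was Itgb1, Itgb4, Itgb5, Itgb6, Itgb8, Itgb3, Itgb2 and Itgb7, and only Itgb5 and Itgb6 overlapped among neighbours. Itgb1 made up 72.0% ± 2.66 of the summed beta chain FPKM in SSCs and 79.7% ± 1.67 in iNSCs, a difference of 7.68 percentage points (exact permutation test over libraries, two-sided, p = 0.1, the smallest p that 3 against 3 allow). Taken on raw counts, which favour long transcripts, the difference was -1.43 points. Itgb5 went from 22.4% ± 2.73 of that sum to 5.12% ± 0.132, and Itgb4 and Itgb6 from 0.746% ± 0.0487 and 0.0121% ± 0.00582 to 8.41% ± 1.34 and 5.03% ± 0.406.

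**Figure D2:**
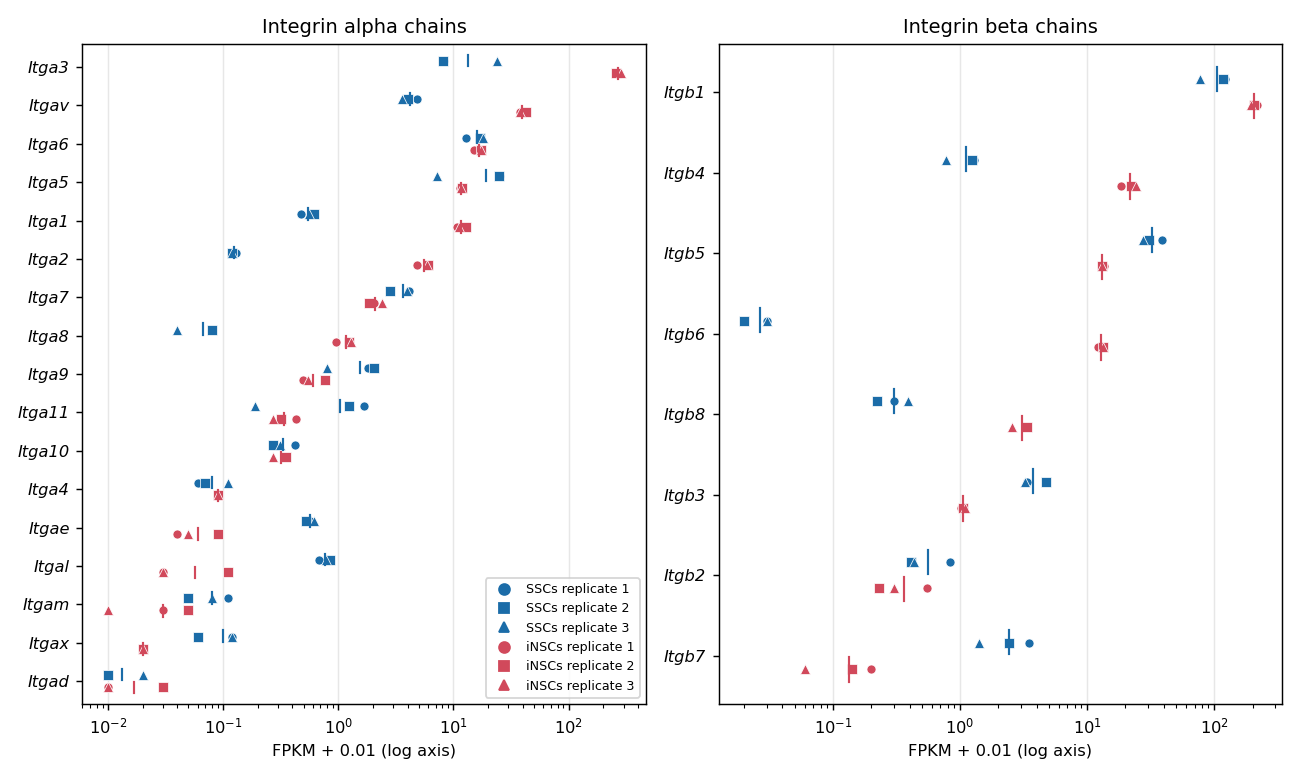
Level of every integrin chain in each library (FPKM + 0.01, log axis); blue symbols are SSCs, red symbols iNSCs, shapes are replicates and short vertical bars the group means. Itga3 and Itgb1 hold the right edge in iNSCs, and Itgb6 shows the widest gap between groups.

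Among the alpha chains that bind laminin, 1 of 3 rose and 0 fell (33.3% called, against 53.3% of all genes tested). Itga3 (ENSMUSG00000001507, chromosome 11, 95044474 to 95076801, minus strand), a receptor chain of epithelia for laminin-332 and laminin-511, had 8.27, 8.09 and 23.95 FPKM in SSCs and 263, 259 and 283 FPKM in iNSCs. SSCs replicate 3 stood above the other SSC libraries but far below all iNSC libraries. That library had the lowest summed fibroblast markers, though not the lowest Dcn, Pdgfra or Lum. Itga3 rose (log2 4.55, SE 0.50, adjusted p = 1.4e-04), and without SSCs replicate 3 the difference was 5.30. Itga6, the marker chain of spermatogonial stem cells, had 12.9, 16.95 and 18.1 FPKM in SSCs and 15, 17.2 and 17.4 FPKM in iNSCs. The iNSC values lay within the range of the SSC values, and Itga6 was not called (log2 0.29, SE 0.17, adjusted p = 0.15). Itga7, a laminin receptor of muscle, had 4.10, 2.82 and 3.90 FPKM in SSCs and 2.03, 1.85 and 2.38 FPKM in iNSCs, a difference below 2-fold (log2 -0.53, SE 0.19, adjusted p = 0.033).

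The 3 laminin-binding chains made up 41.0%, 44.7% and 76.3% of the summed alpha chain FPKM of the SSC libraries, in replicate order, and 80.6%, 78.5% and 81.5% across iNSCs. The difference of means was 26.2 percentage points (exact permutation p = 0.1, the smallest possible), or 10.8 points on raw counts. It was 37.3 points without SSCs replicate 3 and 19.7 without SSCs replicate 1. Within the class only the share of Itga3 was higher in iNSCs (22.0% ± 15.3 in SSCs, 75.0% ± 1.66 in iNSCs). The share of Itga6 went from 26.1% ± 4.66 to 4.62% ± 0.28, and that of Itga7 from 5.88% ± 1.18 to 0.582% ± 0.06. The summed alpha chain level itself went from 61.4 ± 1.04 to 358 ± 11.9 FPKM, and the summed beta chain level from 146 ± 30.6 to 258 ± 8.80 FPKM.

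Of the 4 collagen-binding chains 2 rose. Itga1 and Itga2 are neighbours on chromosome 13 with a gap of 20995 bases, both on the minus strand. Itga1 had 0.460, 0.600 and 0.550 FPKM in SSCs and 10.8, 12.8 and 11.2 FPKM in iNSCs (log2 4.68, SE 0.16, adjusted p = 1.7e-06). Itga2 had 0.120, 0.110 and 0.110 FPKM against 4.85, 6.01 and 5.87 FPKM (log2 5.85, SE 0.18, adjusted p = 1.2e-06). In both genes every iNSC library was far above every SSC library. Itga11, a collagen receptor of fibroblasts, had 1.66, 1.22 and 0.180 FPKM in SSCs and 0.420, 0.310 and 0.260 FPKM in iNSCs. Its SSC values went with the summed fibroblast markers but not with Dcn, Pdgfra and Lum, and the part of these markers was not tested. Itga11 was not called (log2 -1.35, adjusted p = 0.11), but fell by 1.86 on the log2 scale (adjusted p = 5.05e-04) without SSCs replicate 3. Itga10, known from cartilage, was at 0.323 ± 0.0777 and 0.310 ± 0.0436 FPKM (log2 0.19, adjusted p = 0.57, and -0.06 with library totals).

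The chains that bind the RGD motif of fibronectin, vitronectin and related ligands split. Itgav, the partner of beta1, beta3, beta5, beta6 and beta8, had 4.84, 4.03 and 3.58 FPKM in SSCs and 38.1, 42.8 and 37.5 FPKM in iNSCs (log2 3.51, SE 0.13, adjusted p = 1.9e-06). Itga8, a receptor chain of kidney and smooth muscle, went from 0.0700, 0.0700 and 0.0300 FPKM to 0.950, 1.22 and 1.27 FPKM (log2 4.61, SE 0.34, adjusted p = 2.3e-05), and its ligand nephronectin (Npnt) rose too (log2 5.07). Itga5, the fibronectin receptor chain, had 25.5, 24.7 and 7.12 FPKM in SSCs and 11.4, 11.95 and 11.7 FPKM in iNSCs. SSCs replicates 1 and 2 lay above the iNSC libraries and replicate 3 below them. This was the order of the summed fibroblast markers but not of Dcn, Pdgfra and Lum, and the part of these markers was not tested. Itga5 was not called (log2 -0.44, SE 0.40, adjusted p = 0.35). Fibronectin itself (Fn1) rose from 74.2 ± 37.4 to 212 ± 7.21 FPKM (log2 1.78).

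The leukocyte alpha chains were low throughout. Itgal, the chain of the lymphocyte receptor LFA-1, had 0.670, 0.830 and 0.770 FPKM in SSCs and 0.02, 0.1 and 0.02 FPKM in iNSCs (log2 -3.74, SE 0.57, adjusted p = 7.1e-04, and -4.92 without iNSCs replicate 2). Itgae, which encodes the alphaE chain (CD103) of the receptor alphaE beta7, had 0.560, 0.510 and 0.610 FPKM against 0.0300, 0.0800 and 0.0400 FPKM (log2 -3.14, SE 0.38, adjusted p = 2.4e-04). These are 279 and 144 counts over the 3 SSC libraries and 18 and 14 over the iNSC libraries. Itgal and Itgae were nearly level across SSC replicates. The summed leukocyte markers were at 40.3, 11.6 and 17.6 FPKM in SSCs and 20.5 to 23.5 FPKM in iNSCs. Most of the SSC sum was Lyz2 (33.23, 0.93 and 4.3 FPKM) and Cd68 (5.22, 9.74 and 11.82 FPKM). Cd3e had 0.35, 0.34 and 0.21 FPKM in SSCs, so the sum does not show its course among these markers. Of those 9 markers Csf1r rose, Cd3e fell, C1qa had 0 counts in iNSCs, and Ptprc, which defines leukocytes, had 0.107 ± 0.0987 FPKM in SSCs against 0.187 ± 0.0321 FPKM in iNSCs. Their part in the levels of the leukocyte chains was not tested. On the strand opposite to Itgae lies Haspin, a mitotic kinase gene, which fell as well (6.90 to 2.49 FPKM, log2 -1.22); the annotation gives 0 shared exonic bases.

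Itgam, Itgax and Itgad, which lie side by side on chromosome 7, had too few counts to be tested. Their sums over a group were 21, 24 and 1 counts in SSCs and 6, 3 and 2 in iNSCs. Itga4, a receptor chain for VCAM-1 and fibronectin, was at 0.0700 ± 0.0265 and 0.0800 FPKM (52 and 63 counts, log2 0.46, adjusted p = 0.30), and it shares 1124 exonic bases with Cerkl on the other strand. Its relative Itga9, which binds tenascin and VCAM-1, had 1.80, 2.04 and 0.780 FPKM in SSCs and 0.480, 0.760 and 0.540 FPKM in iNSCs. SSCs replicate 3 and iNSCs replicate 2 nearly met. Itga9 fell (log2 -1.12, SE 0.37, adjusted p = 0.026), but not without SSCs replicate 1 (adjusted p = 0.0600), SSCs replicate 2 (0.0945), iNSCs replicate 1 (0.0965) or iNSCs replicate 3 (0.0888).

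By level the SSC alpha chains led with Itga5, Itga6 and Itga3, whose ranges overlapped, and then Itgav and Itga7, which overlapped too. In iNSCs the order was Itga3, Itgav, Itga6, Itga5, Itga1, Itga2, Itga7 and Itga8, with overlap only between Itga5 and Itga1. The remaining chains were below 1 FPKM there. Of close symbols that the pattern leaves out, Itga2b was at 0.823 and 0.523 FPKM and not called (adjusted p = 0.18), Itgb2l, at 0.0600 FPKM in SSCs, reached 1.26 ± 0.140 FPKM and rose (log2 4.57, SE 0.29, adjusted p = 1.2e-05) and Itgbl1 was too low to be tested.

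The laminin alpha chains decide which receptors a trimer binds. Lama5, the broadly used chain of mature basement membranes and of stem cell culture substrates (ENSMUSG00000015647, chromosome 2, 180176373 to 180225859, minus strand), had 11.25, 17.5 and 8.36 FPKM in SSCs and 73.0, 85.8 and 87.6 FPKM in iNSCs (log2 2.99, SE 0.27, adjusted p = 5.7e-05). It was the highest laminin alpha chain in both groups. Lama4, the chain of vessels and of mesenchyme, had 2.12, 1.59 and 0.930 FPKM against 13.2, 11.85 and 10.3 FPKM (log2 3.20, SE 0.27, adjusted p = 3.8e-05). Lama3, the epithelial chain, had 4.20, 6.26 and 4.96 FPKM against 10.3, 11.4 and 11.9 FPKM (log2 1.38, SE 0.17, adjusted p = 2.6e-04). In all 3 cases the groups did not overlap.

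Lama1, the chain of early embryos and of the classic tumour laminin used to coat dishes, was not called. It had 5.37, 5.94 and 1.71 FPKM in SSCs and 3.10, 3.27 and 2.83 FPKM in iNSCs, again with SSCs replicate 3 below and the others above the iNSC libraries (log2 -0.23, SE 0.39, adjusted p = 0.61, and 0.08 without SSCs replicate 2). Lama2, the chain of muscle and peripheral nerve, was at 0.643 ± 0.0473 and 0.867 ± 0.0503 FPKM, a difference below 2-fold (log2 0.68, SE 0.15, adjusted p = 0.0048). Among the alpha chains Lama5 held 50.9% ± 3.65 of the summed FPKM in SSCs and 75.2% ± 2.36 in iNSCs, and Lama1 held 17.2% ± 6.36 and 2.82% ± 0.301.

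Among beta chains the largest laminin change was that of Lamb3, which occurs in laminin-332 of epithelia (ENSMUSG00000026639, chromosome 1, 193207699 to 193343878, plus strand). It had 29 counts over the SSC libraries and 27442 over the iNSC libraries. In FPKM these were 0.130, 0.0600 and 0.0400 against 67.1, 70.6 and 75.1 (log2 10.07, SE 0.32, adjusted p = 1.2e-06, and 10.69 without SSCs replicate 1). Hsd11b1, a steroid dehydrogenase gene on the other strand within the table's bounds of Lamb3, also rose but stayed at 1.66 ± 0.367 FPKM in iNSCs (log2 1.99). Lamb2, a chain of kidney and synapse, had 14.7, 11.6 and 7.11 FPKM against 45.6, 44.7 and 43.3 FPKM (log2 2.26, SE 0.23, adjusted p = 8.7e-05). Lamb1, the most widespread beta chain, had 51.3, 54.0 and 32.2 FPKM against 62.7, 64.3 and 62.5 FPKM and stayed below 2-fold (log2 0.72, SE 0.18, adjusted p = 0.0078). In SSCs Lamb1 made up 80.5% ± 2.58 and Lamb3 0.130% ± 0.0581 of the beta chain FPKM, and in iNSCs 35.4% ± 0.714 and 39.7% ± 1.66.

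Of the gamma chains, Lamc1, present in most trimers, had 17.4, 17.9 and 20.8 FPKM in SSCs and 83.3, 78.2 and 74.6 FPKM in iNSCs (log2 2.32, SE 0.13, adjusted p = 8.2e-06). The groups did not overlap. Lamc3 was at 0.140, 0.130 and 0.600 FPKM in SSCs and 0.810, 0.450 and 0.940 FPKM in iNSCs. It was not called (log2 1.57, SE 0.64, adjusted p = 0.057), but rose without SSCs replicate 3 (log2 2.69, adjusted p = 5.24e-04), with DESeq2's Wald test (log2 1.57, adjusted p = 0.0247) and with no filter on low counts (log2 1.61, adjusted p = 0.0241).

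**Figure D3:**
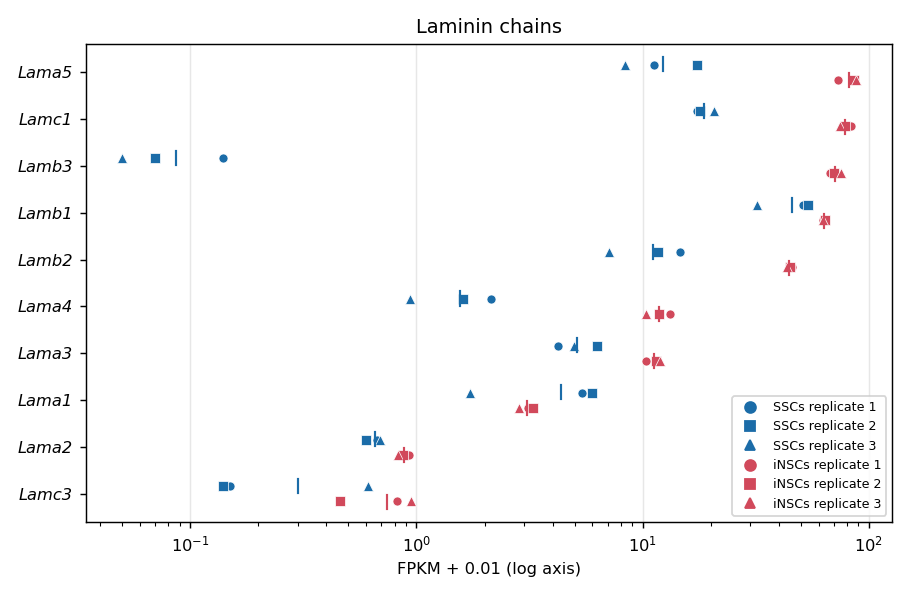
Level of 10 of the 11 laminin chains in each library (FPKM + 0.01, log axis); blue symbols are SSCs, red symbols iNSCs, shapes are replicates and short vertical bars the group means. Lamb3 moves from the left edge to about the level of Lamb1, while Lama1 and Lamc3 overlap between groups.

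**Figure D4:**
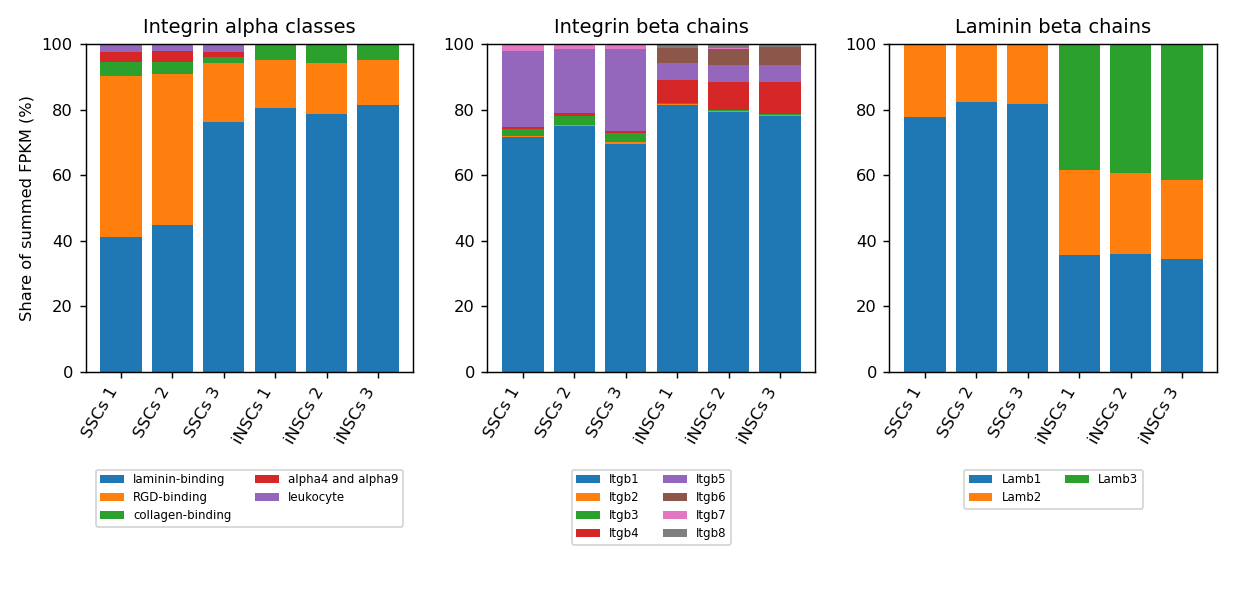
Share of each chain or class in the summed FPKM of its kind (y axis, percent, from 0 to 100) in each of the 6 libraries. Lamb3 takes about 40% of the laminin beta chains in iNSCs and almost nothing in SSCs, and SSCs replicate 3, at 76.3%, lies nearer to the iNSC libraries than to the other SSC libraries in its laminin-binding alpha chains.

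A receptor or trimer needs all its chains, so the lowest chain of known combinations was read in every library. This is an mRNA level, and no protein or assembly was measured. A chain that occurs in several combinations, such as Itgb1, Itga6 or Lamc1, was read in full for each of them. For laminin-511 the value was 12.4 ± 4.66 FPKM in SSCs, set by Lama5, and 63.2 ± 1.02 FPKM in iNSCs, set by Lamb1. For laminin-111 it was 4.34 ± 2.30 and 3.07 ± 0.222 FPKM, set by Lama1 in both groups, with overlapping libraries. Laminin-511 and laminin-521, which share Lama5 and Lamc1, thus had the highest lowest chains of the trimers listed in both groups.

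Among receptors, alpha3 beta1 had the highest lowest chain in iNSCs, at 205 ± 11.2 FPKM, where Itgb1 and no longer Itga3 was the lower chain. In SSCs alpha5 beta1 (19.1 ± 10.4 FPKM), alpha6 beta1 (16 ± 2.74 FPKM) and alpha3 beta1 (13.4 ± 9.11 FPKM) were within their spread of each other. For alpha6 beta4, Itgb4 was the lower chain in SSCs at 1.10 ± 0.284 FPKM and Itga6 in iNSCs at 16.55 ± 1.34 FPKM. For alphav beta6 the lower chain was Itgb6 in both groups, at 0.0167 ± 0.00577 and 12.9 ± 0.702 FPKM. For alphav beta5 the lower chain was Itgav in SSCs (4.15 ± 0.639 FPKM) and Itgb5 in iNSCs (13.2 ± 0.254 FPKM), so that the lower chain was higher in iNSCs although Itgb5 itself fell.

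**Figure D5:**
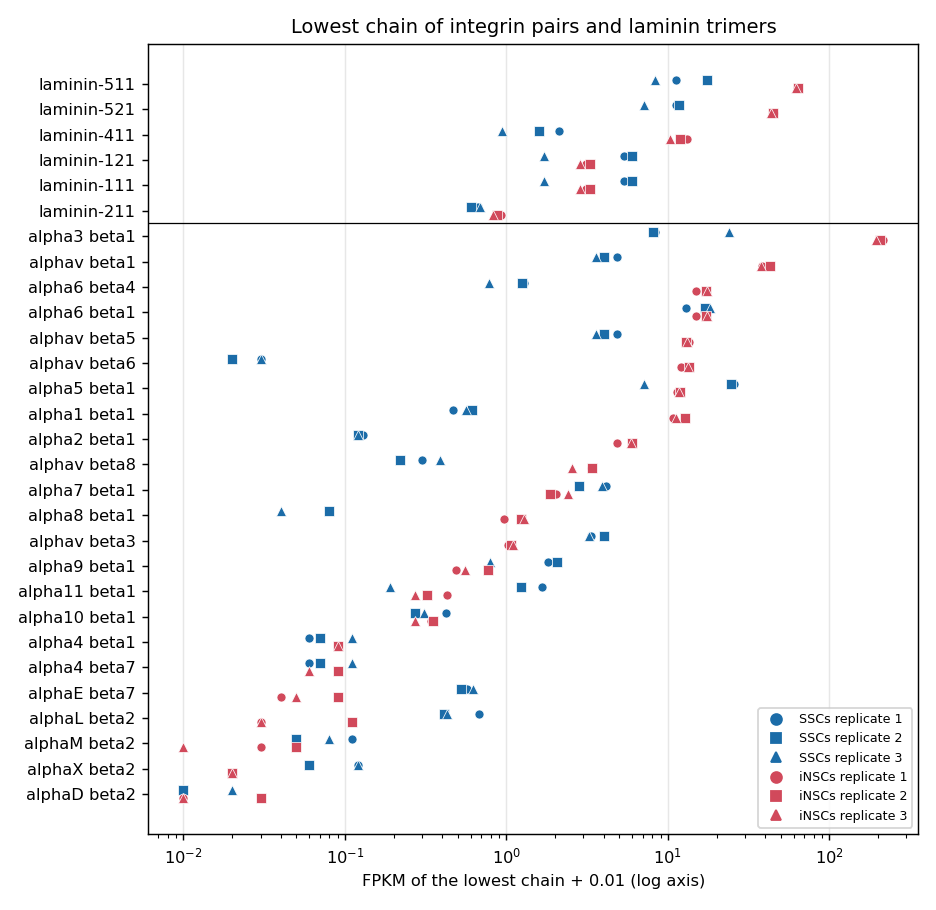
FPKM of the lowest chain (+ 0.01, log axis) for 6 laminin trimers (above the line) and for integrin pairs (below it) in each library; colours and shapes as for the chain levels. Alphav beta6 shows the widest gap, and alpha6 beta1 none.

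Partner genes were taken from 5 lists, and 52 of their 75 tested members were called; over all genes tested, 53.3% were called, 25.7% upward and 27.6% downward. Of 26 tested genes of integrin activation and of the adhesion plaque, 19 rose and 1 fell (76.9% called, median log2 1.67). Fermt1, the epithelial kindlin that binds beta chain tails, rose most, from 0.0600 ± 0.0361 to 11.45 ± 1.84 FPKM (log2 7.89, SE 0.38). The scaffold genes Parva and Parvb rose by log2 differences of 2.60 and 2.39, and so did Tln1, the talin that activates integrins (log2 2.32). Tln2, its paralog, was the member that fell, from 5.28 ± 1.18 to 1.17 ± 0.0656 FPKM (log2 -1.92). The focal adhesion kinase gene Ptk2 was lower but below 2-fold (log2 -0.70, adjusted p = 0.0014), while its relative Ptk2b rose (log2 2.15).

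Of 16 basement membrane partners, 9 rose and 3 fell (75.0% called, median log2 1.15). Agrn, a heparan sulfate proteoglycan that binds laminin, went from 10.7 ± 4.33 to 171 ± 19.7 FPKM (log2 4.27, SE 0.33). Col18a1 and Hspg2, of the same kind, rose by log2 differences of 3.59 and 2.97. The fallers were Smoc1 (log2 -5.55), Smoc2 (log2 -4.90) and Nid2 (log2 -2.83), while Nid1, the other nidogen linking laminin to collagen IV, rose (log2 1.06). Col4a1 and Col4a2, the common collagen IV chains, were not called (adjusted p = 0.069 and 0.091), with SDs in SSCs of 75.3 and 66.9 FPKM around means of 120 and 102 FPKM.

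Of 8 laminin receptors outside the integrin family, 3 rose and 1 fell (median log2 0.60), so that 4 of 8 were called, a share below that among all genes tested. Bcam, the Lutheran glycoprotein that binds the laminin alpha5 chain, went from 2.71 ± 1.25 to 399 ± 25.6 FPKM (log2 7.47, SE 0.35), and Lgals3 and Sdc2 rose by 4.61 and 1.69. Mcam, a cell adhesion molecule that binds the laminin alpha4 chain, fell from 302 ± 121.4 to 19.95 ± 1.72 FPKM (log2 -3.68, SE 0.32). Dag1, dystroglycan, was below 2-fold (log2 0.76, adjusted p = 5.4e-04). With library totals in place of TMM, or without SSCs replicate 2, 2 of these receptors fell.

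Of 4 hemidesmosome genes 75.0% were called (median log2 0.78): Cd151 (log2 1.78) and Plec (log2 1.05) rose, and Col17a1, the collagen that joins alpha6 beta4 in the skin, fell from 2.63 ± 0.831 to 0.300 ± 0.0819 FPKM (log2 -2.85, SE 0.32). Plec missed 2-fold with library totals or without SSCs replicate 1, which left 1 riser. Of 5 markers of basal epithelium, Krt17 and Krt5 rose, Trp63 fell, and Krt14 and Krt15 had too few counts to be tested. Their sum was 1.00 to 1.90 FPKM in SSCs and 15.9 to 24.7 FPKM in iNSCs, most of it Krt17 (18.1 ± 4.59 FPKM in iNSCs), with Krt5 at 0.680 ± 0.288 and Trp63 at 0.0367 ± 0.0208 FPKM there. Markers of simple epithelium were higher by far, as given above. The part of such cells in the levels of Itgb4, Itgb6 and Lamb3 was not tested.

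Of 21 tested genes for other integrin ligands, 11 rose and 2 fell (61.9% called, median log2 1.78). Vcam1, a ligand of alpha4 and alpha9 integrins, rose most, from 0.390 ± 0.308 to 19.4 ± 0.303 FPKM (log2 5.90, or 6.72 without SSCs replicate 1). Npnt rose by 5.07, Cdh1, the ligand of alphaE beta7, by 3.89 and Tgfb2, a TGF-beta isoform gene, by 3.63, and both chains of alphaE beta7 fell. Fras1, a matrix protein of embryonic epithelia, and Madcam1, the ligand of alpha4 beta7, fell (log2 -3.61 and -3.26, the latter -2.64 without SSCs replicate 3). Spp1, osteopontin, a ligand of alphav integrins, rose from 589.5 ± 536 to 3096 ± 314 FPKM (log2 2.68, and 3.67 without SSCs replicate 1).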

How the data were processed

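Messenger RNA of 3 SSC and 3 iNSC libraries was analysed from 1 table. The authors deposited whole-number read counts and FPKM values per Ensembl gene, per the file headers. FPKM was recomputed from counts, exonic length and column totals and matched within 0.0051 in 100% of values. The submitters' processing notes list HISAT2, DESeq2 and the build mm9. No label or header gives the counting tool or its strand setting (the kit is stranded), so reads of overlapping genes on opposite strands cannot be told apart. The exonic length used for FPKM came with the deposited table. Coordinates are those of the table. All 36 members had identical coordinates in GENCODE M21 (GRCm38), so that build is used although the notes name mm9. Groups follow the sample titles, source names and stage labels; in each of the 6 samples the cell type label gives the other group's name, and it was set aside; the germ cell markers go with the titles.

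Counts were tested with edgeR 4.0.16 under R 4.3.3: default filter (minimum count 10, total 15), TMM, quasi-likelihood test, two-sided, Benjamini-Hochberg adjustment over 17387 genes. SE is the log2 difference divided by the root of the F statistic. Shares used an exact permutation test. Alternatives were DESeq2 1.42.0, its size factors, library totals, other filters, limma 3.58.1 on log2(FPKM + 1) and log2(FPKM + 0.1), a replicate block, leaving out each library, and no size threshold. The steps were tested on simulated data in which few genes changed and all had the same spread. That run does not cover data with as many changes, or libraries as unequal, as here. The labels do not say that replicates are separate cultures, so the p-values rest on the spread between libraries, which may be technical. At this depth 3 counts equal 0.149 to 0.166 CPM.

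Every member is named except 1 laminin chain, which is counted in the lists but not reported here, with up to 4 called members of each partner list by size of change, and others where a count is 5 or fewer; Ptk2, Ptk2b, Nid1, Hspg2, Col4a1, Col4a2, Dag1, Fn1, Spp1, Tgfb1, Haspin, Hsd11b1, Cerkl and Itgb2l were chosen after their values were seen. The members and lists were chosen with earlier results of these data known.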

Additional observations from a re-analysis of the deposited data

How the results depend on the processing

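The integrin chains that rose numbered 9 without any single library and the laminin risers 7 to 8. Integrin chains that fell numbered 4 to 7, integrin chains called 13 to 16, laminin chains called 7 to 8, laminin fallers 0, and called partner genes 49 to 52. With limma on log2(FPKM + 1) or log2(FPKM + 0.1), 3 integrin chains fell in place of 6, since only 14 were above its filter of 1 FPKM in 3 libraries. The differences in shares ranged, without single libraries, from 6.5 to 9.12 points for Itgb1 and from 19.7 to 37.3 for the laminin-binding chains. On raw counts, which weight each chain by its length, they were -1.43 for Itgb1 and 10.8 for the laminin-binding chains. All 33 tested members stayed on their side of the threshold with DESeq2 size factors; Itgb1 missed the size threshold with library totals (0.96) and in limma (0.98 and 0.99), and Lamc3 passed with DESeq2, with no filter and with the replicate block (log2 1.84, adjusted p = 0.0154). No called member changed direction under any alternative run. The replicate block gave 15 integrin and 8 laminin calls. Titles share numbers, but same-numbered libraries correlated at only 0.091, 0.05 and -0.015 in their deviations from the group means, so they were not treated as pairs. Counts below about 30 per group (Itgal, Itgae and Itgb7 in iNSCs, Itgb6, Itga8 and Lamb3 in SSCs) limit how well a fold can be known.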
